A study of Mus musculus with 10 samples.

Results

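The Pax family of mouse comprises 9 genes, Pax1 to Pax9, each of which encodes a transcription factor with a paired DNA-binding domain. The genes were located by their GENCODE vM1 annotation in the mm9 genome, and every site of 4 deposited ChIP-seq site lists that shared at least 1 bp with a gene body plus 5 kb on each side was taken as a site of that gene. These windows held 30 of 8876 Suz12 sites, 24 of 5722 sites of decreased Suz12 on Pcl3 knockdown (Suz12-depleted sites), 32 of 5242 Pcl3 sites and 3 of 678 sites of decreased H3K27me3 on Pcl3 knockdown (H3K27me3-depleted sites). The 9 genes were compared with all 22225 annotated protein-coding genes.

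The lists came from 10 libraries of mouse embryonic stem cells (ESCs), of which 6 were ChIP and 4 were input DNA. For Suz12 and H3K27me3, cells of BayGenomics gene trap line XG122 with the genotype Suz12 Suz12TAP/+, in which 1 allele of Suz12 carries a tandem affinity tag (TAP), expressed either scramble shRNA or Pcl3 shRNA. Each of these populations gave 1 H3K27me3 library (anti-H3K27me3 antibody), 1 Suz12 library (FlagM2 antibody, which recognizes the Flag part of the tag) and 1 input library. For Pcl3, E14 ESCs carried Pcl3-TAP, a tagged Pcl3 that the shRNAs do not target, together with either Pcl3-wildtype-shRNA6 or Pcl3-wildtype-shRNA7, and gave 1 FlagM2 library and 1 input library each, with 1 site list for the pair. The labels name the knockdown as Pcl3-shRNA for the Suz12 and H3K27me3 libraries and as Pcl3-shRNA6 for their input, and they do not say how many clones a library holds. The lists give a position and a Skellam p-value per site, as called by the authors, without read counts, so the depth behind each site is unknown and no fold change could be computed. With 1 library per condition there was no replicate check, and no test between conditions was made. The strength of a Suz12 or Pcl3 site is given as −log10 of this p-value. Where the p-value was written as 0, the strength was set to 307, the largest value among the other sites of its list.

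PRC2 is the chromatin complex that trimethylates lysine 27 of histone H3 (H3K27me3), with Suz12, Eed and Ezh2 as core subunits. In ESCs it occupies many genes for developmental transcription factors, many of which are not expressed in these cells. Pcl3, also called Phf19, is an accessory protein of PRC2 from the Polycomb-like family. The Pax factors act later, as lineage regulators: Pax1 and Pax9 in the sclerotome and the pharyngeal pouches, Pax2 and Pax8 in the kidney, Pax8 in the thyroid, Pax5 in B cells and the midbrain-hindbrain boundary, Pax3 in the neural crest and muscle precursors, Pax7 in muscle satellite cells, Pax4 in the beta cells of the pancreas and Pax6 in the eye, the forebrain and the pancreas. By protein structure they form 4 subfamilies, Pax1 with Pax9, Pax2 with Pax5 and Pax8, Pax3 with Pax7, and Pax4 with Pax6.

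PRC2 sites of ESCs lie mostly at DNA rich in CpG. To show the DNA that the complex occupied at this family, the 120 bp with the most CpG outside annotated untranslated regions were read from mm9 in the strongest Pcl3 site of each of the 8 Pax genes that had one, and in the whole window of Pax4, which had none. Each stretch is given 5′ to 3′ on the strand of its gene, with CpG in capitals.
Pax1 (chr2:147191433-147191552, plus strand): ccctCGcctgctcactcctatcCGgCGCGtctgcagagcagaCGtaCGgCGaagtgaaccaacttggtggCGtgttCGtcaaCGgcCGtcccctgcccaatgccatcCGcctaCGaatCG
Pax9 (chr12:57797632-57797751, plus strand): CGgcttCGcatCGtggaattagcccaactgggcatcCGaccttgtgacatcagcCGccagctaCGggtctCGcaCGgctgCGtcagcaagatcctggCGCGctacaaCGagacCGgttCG
Pax2 (chr19:44830112-44830231, plus strand): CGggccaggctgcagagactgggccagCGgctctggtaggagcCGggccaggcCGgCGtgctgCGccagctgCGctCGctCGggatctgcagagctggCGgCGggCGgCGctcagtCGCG
Pax5 (chr4:44725027-44725146, minus strand): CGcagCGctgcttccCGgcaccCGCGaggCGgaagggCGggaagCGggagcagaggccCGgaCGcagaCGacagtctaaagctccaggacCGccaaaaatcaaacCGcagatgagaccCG
Pax8 (chr2:24329802-24329921, minus strand): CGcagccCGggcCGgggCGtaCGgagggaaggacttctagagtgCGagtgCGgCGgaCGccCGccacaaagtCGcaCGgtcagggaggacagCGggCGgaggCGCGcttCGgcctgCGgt
Pax3 (chr1:78186155-78186274, minus strand): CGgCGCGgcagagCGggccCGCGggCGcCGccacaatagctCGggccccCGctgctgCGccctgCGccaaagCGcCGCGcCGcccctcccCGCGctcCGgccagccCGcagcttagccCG
Pax7 (chr4:139377447-139377566, minus strand): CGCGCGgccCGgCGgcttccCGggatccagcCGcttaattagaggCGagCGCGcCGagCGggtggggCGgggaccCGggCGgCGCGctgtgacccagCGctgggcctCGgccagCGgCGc
Pax6 (chr2:105509800-105509919, plus strand): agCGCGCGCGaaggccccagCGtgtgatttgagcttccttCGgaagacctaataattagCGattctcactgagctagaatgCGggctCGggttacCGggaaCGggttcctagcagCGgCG
Pax4 (chr6:28401443-28401562, minus strand): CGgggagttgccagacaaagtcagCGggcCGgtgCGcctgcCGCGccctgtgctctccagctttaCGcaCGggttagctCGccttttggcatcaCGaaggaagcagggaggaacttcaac
The 8 stretches from Pcl3 sites also lie in Suz12-depleted sites. The stretches of Pax1 and Pax9 are in coding exons, those of Pax2 and Pax5 lie upstream of the annotated gene start, those of Pax3, Pax7 and Pax6 lie in introns, and that of Pax8 lies in an exon of a non-coding Pax8 transcript. CpG dinucleotides numbered 21 in each stretch of Pax3 and Pax7, 18 in that of Pax8, 15 in that of Pax2, 14 in each of Pax1, Pax9 and Pax5, 13 in that of Pax6 and 10 in that of Pax4, the lowest of these.

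Of the 9 Pax genes, 8 had sites of the Suz12, the Suz12-depleted and the Pcl3 list, and only Pax4 had none of them. Among all protein-coding genes, the share with a site was 28.8% for Suz12, 20.7% for Suz12-depleted and 14.7% for Pcl3. H3K27me3-depleted sites lay at 3 Pax genes, Pax2, Pax5 and Pax7, against 3.14% of protein-coding genes. The annotated start of the gene lay inside a Suz12 site at 8 Pax genes, as it did at 18.3% of protein-coding genes. Since a long gene has a wider window, the 14010 protein-coding genes with bodies from 7020 bp (Pax4) to 180302 bp (Pax5) were also counted, a comparison chosen after the data were seen. This range spans the Pax family but does not match genes by length, so the effect of length on the shares was not tested. There the shares were 31.3% for Suz12, 21.6% for Suz12-depleted, 15.1% for Pcl3 and 2.93% for H3K27me3-depleted sites.

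**Figure D1:**
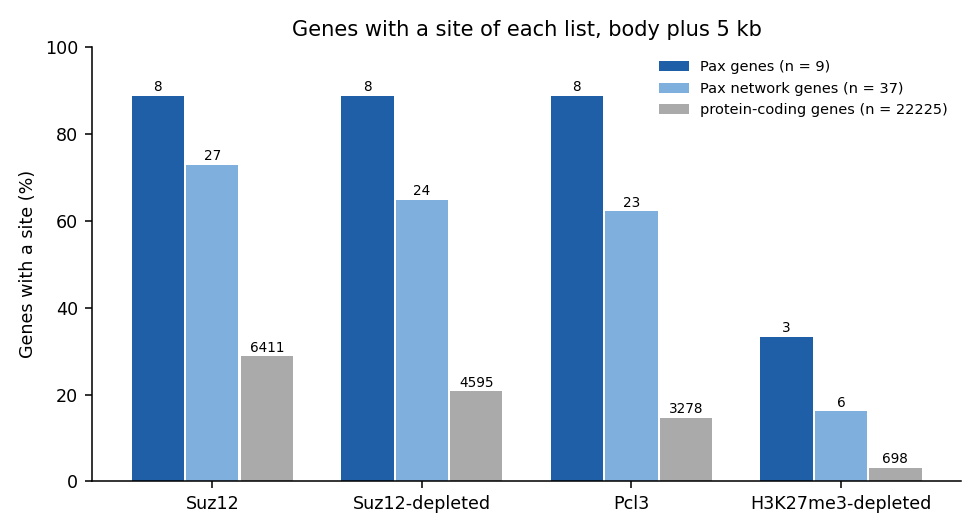
Percent of genes with at least 1 site of each list in the gene body plus 5 kb, for the 9 Pax genes, 37 genes that act with them and all 22225 protein-coding genes; the number above each bar is the count of genes. The Pax bars stand at 8 of 9 genes for Suz12, Suz12-depleted and Pcl3 sites and at 3 of 9 for H3K27me3-depleted sites, above the 28.8%, 20.7%, 14.7% and 3.14% of all protein-coding genes.

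Of the 30 Suz12 sites, 24 lay at least in part within 20 kb of the gene start. Suz12 sites covered 106350 bp and Pcl3 sites 115450 bp, and 98400 bp were covered by both, which is 92.5% of the Suz12 bases and 85.2% of the Pcl3 bases. Suz12-depleted sites made up 102550 bp of the Suz12 bases. Pax7, Pax2 and Pax3 had the broadest domains. When Suz12 sites less than 1 kb apart were joined, the domain over the start of Pax7 spanned 22250 bp and ranked 5th by width among 7743 joined domains, that of Pax2 spanned 17000 bp and ranked 13th, and that of Pax3 spanned 15700 bp and ranked 18th. As deposited, Pax6 had the most sites, with 7 Suz12 and 7 Pcl3 sites, and 36 of the 22225 protein-coding genes (0.162%) had at least as many Suz12 sites. After joining within 1 kb, Pax6 had 3 Suz12 and 4 Pcl3 sites, against 5 Suz12 sites at Pax5 and 5 Pcl3 sites at Pax3, and with p-values of at most 1e-12 it had 4 Suz12 and 2 Pcl3 sites, against 5 Suz12 sites at Pax3. At the other end, Pax8 had 1 Suz12 site of 2350 bp.

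**Figure D2:**
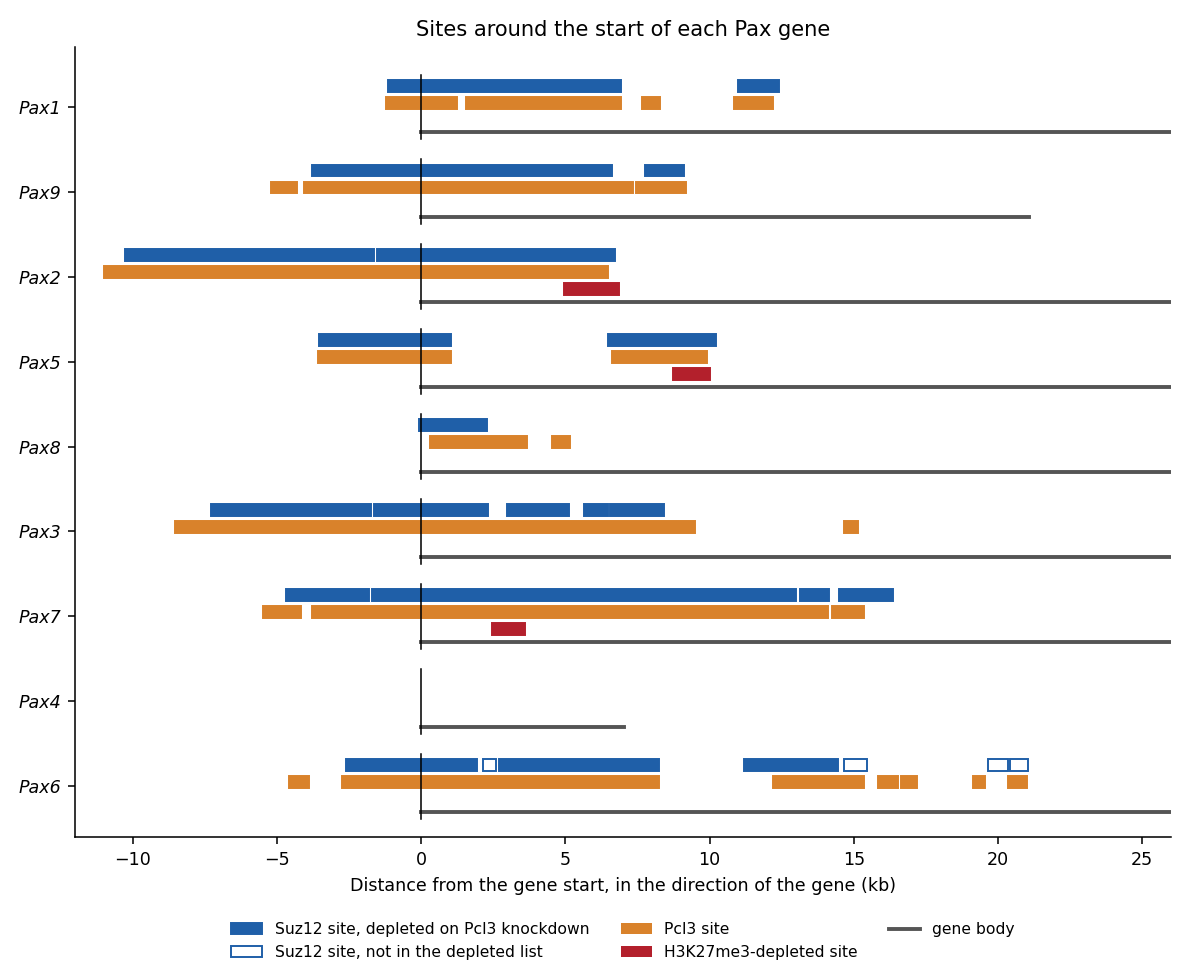
Sites around the annotated start of each Pax gene, from −12 kb to 26 kb in the direction of the gene; filled blue boxes are Suz12 sites in the depleted list, open blue boxes Suz12 sites outside it, orange boxes Pcl3 sites, red boxes H3K27me3-depleted sites and the grey line the gene body. A further 5 Suz12 and 8 Pcl3 sites lie beyond this range, at Pax2, Pax5 and Pax3; Pax4 has no site, and the open boxes in this range belong to Pax6.

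Pax1 and Pax9, the sclerotome genes, had a similar arrangement. Each carried 1 broad Suz12 site over its start and a narrower Suz12 site further into the gene, and all 4 were in the depleted list. The Suz12 site over the start of Pax1 (chr2:147186501-147194600) reached from −1160 to 6939 bp of the gene start, and that of Pax9 (chr12:57788951-57799350) from −3803 to 6596 bp, and both had a p-value written as 0. The inner sites, at 10990 to 12389 bp in Pax1 and at 7747 to 9096 bp in Pax9, had strengths of 68.9 and 93.2. Pcl3 sites covered 94.7% of the Suz12 bases at Pax1 and 100% at Pax9. The strongest Pcl3 site of Pax1 (chr2:147189201-147194600, strength 293) lay inside the broad Suz12 site, and that of Pax9 (chr12:57788701-57800100, p written as 0) extended beyond it on both sides. Neither gene had an H3K27me3-depleted site, the nearest being 1013419 bp from Pax1 and 1500341 bp from Pax9. The annotated non-coding transcripts AI646519, antisense to Pax1, and Gm15524, on the strand of Pax9, also started inside the broad Suz12 sites. AI646519 started in another, weaker Pcl3 site of Pax1 (chr2:147186451-147188900, strength 105), which also held the start of Pax1, and Gm15524 in the strongest Pcl3 site of Pax9.

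Pax2, Pax5 and Pax8 differed among themselves. Pax2, which is needed for kidney and optic development, had 4 Suz12 sites, all depleted. A pair of them lay next to each other around the gene start, from −10288 to 6711 bp (chr19:44820251-44828900 and chr19:44829001-44837250), both with a p-value written as 0, largely under 1 Pcl3 site of 17450 bp (chr19:44819551-44837000, p written as 0), the 12th widest of the 5242. The other pair lay at the 3′ end of the gene, at 78362 to 82261 bp from its start, with strengths of 184 and 20.0, where the non-coding transcript 1700039E22Rik also started inside a Suz12 and a Pcl3 site.

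Pax5, the B cell commitment factor, had 5 Suz12 sites, from upstream of its start to 153517 bp into the gene. The 3 that were depleted lay over the start (chr4:44723301-44727850), at 6468 to 10217 bp in an intron (chr4:44714101-44717850) and at 46268 to 48067 bp (chr4:44676251-44678050), where the non-coding transcript Gm12462 started. The first 2 had a p-value written as 0 and the third had a strength of 93.6. Each of these 3 was overlapped by a Pcl3 site, the strongest at the start (chr4:44723301-44727900, strength 292). The other 2, deep in the gene at chr4:44570801-44571400 (strength 11) and chr4:44577351-44577950 (strength 9.31), were outside the depleted list and had no Pcl3 site.

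Pax8, the thyroid and kidney factor, had the fewest sites of the 8 bound genes. Its Suz12 site (chr2:24328851-24331200, strength 165) was depleted and reached from −81 to 2268 bp of the gene start. The strongest Pcl3 site (chr2:24327451-24330800, strength 102) began at 319 bp, so that Pax8 was the single bound Pax gene whose start lay in no Pcl3 site, and Pcl3 covered 83% of the Suz12 bases. The non-coding transcript Gm13415 overlaps this region on the other strand, so the annotation gives both genes there.

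Pax3 and Pax7, which act in neural crest and muscle precursors, had 9 Suz12 sites between them, all in the depleted list. At Pax3, 5 Suz12 sites lay between −7291 and 8408 bp of the start under 1 Pcl3 site of 18050 bp (chr1:78184201-78202250, p written as 0), the 6th widest of all. The strongest Suz12 site of Pax3 was the one over its start (chr1:78191401-78195350, p written as 0), and the site next to it upstream (chr1:78195451-78201000) had a strength of 307. The weakest, chr1:78187251-78188050, had a strength of 17.4. Pax3 also had 5 narrow Pcl3 sites of 450 to 750 bp at 14659 bp and further into the gene that overlapped no Suz12 site, with −log10 p from 7.58 to 13.6. At Pax7, the Suz12 site over the start (chr4:139376451-139391150, p written as 0) was 14700 bp wide, the 2nd widest of the 8876, and lay inside a Pcl3 site of 17900 bp (chr4:139375351-139393250, p written as 0), the 7th widest Pcl3 site. A weak Suz12 site (strength 16.8) outside the depleted list lay 5055 bp upstream of Pax7, just beyond the window, and is part of the joined domain of 22250 bp.

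Pax4 and Pax6 were unlike each other. Pax4, the shortest of the 9 genes at 7020 bp, had no site of any list, and the nearest Suz12 and Pcl3 sites lay 43983 bp and 44083 bp away, at Zfp800. The 1 kb around the start of Pax4 held 0.3 CpG per 100 bp, which placed it at percentile 3.94 of protein-coding genes, while the other Pax genes stood between percentile 32.7 (Pax8) and 76.2 (Pax2). Of the fifth of protein-coding genes with the fewest CpG at the start, 4.86% had a Suz12 site, and of the fifth with the most, 46.9%.

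Pax6, the eye and forebrain regulator, had 3 depleted and 4 undepleted Suz12 sites. The depleted sites at the start (chr2:105506451-105511000) and at 2698 to 8247 bp (chr2:105511751-105517300) had a p-value written as 0 and lay under 1 Pcl3 site of 11000 bp (chr2:105506301-105517300, p written as 0), and the depleted site at 11198 to 14447 bp had a strength of 112. Pax6os1, the antisense transcript of Pax6, also started inside the first of them, so this site cannot be told apart between both genes. The 4 undepleted sites lay at 2148 to 2597 bp (strength 7.38), at 14648 to 15447 bp (strength 16.1), at 19648 to 20347 bp (strength 11.2) and at 20398 to 21047 bp (strength 9.77). They were 450 to 800 bp wide, and 3 of the 4 shared bases with a Pcl3 site. The nearest H3K27me3-depleted site lay 7000702 bp from Pax6.

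In strength, which for Suz12 describes binding in scramble cells against input, the Suz12 sites of the Pax genes had a median of 109 (quartiles 24.6 and 307, n = 30 sites), against 26.2 for all 8876 (quartiles 12.2 and 74.5). A p-value written as 0, placed at 307, was given for 10 of the 30 sites, at 7 of the 8 bound genes, and for 4.9% of all Suz12 sites. In width they had a median of 2250 bp, against 1100 bp for all. The authors recomputed each p-value over the joined windows of a site, so this strength is not separate from width. Strength per base could not be computed without read counts. Of the 30 sites, 12 were in the strongest decile of the list. The Pcl3 sites had a median −log10 p of 25.6 (n = 32 sites), against 16.3 for all 5242. A p-value written as 0 was given for 5 of the 32 (15.6%), at Pax9, Pax2, Pax3, Pax7 and Pax6, and for 3.97% of all Pcl3 sites.

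**Figure D3:**
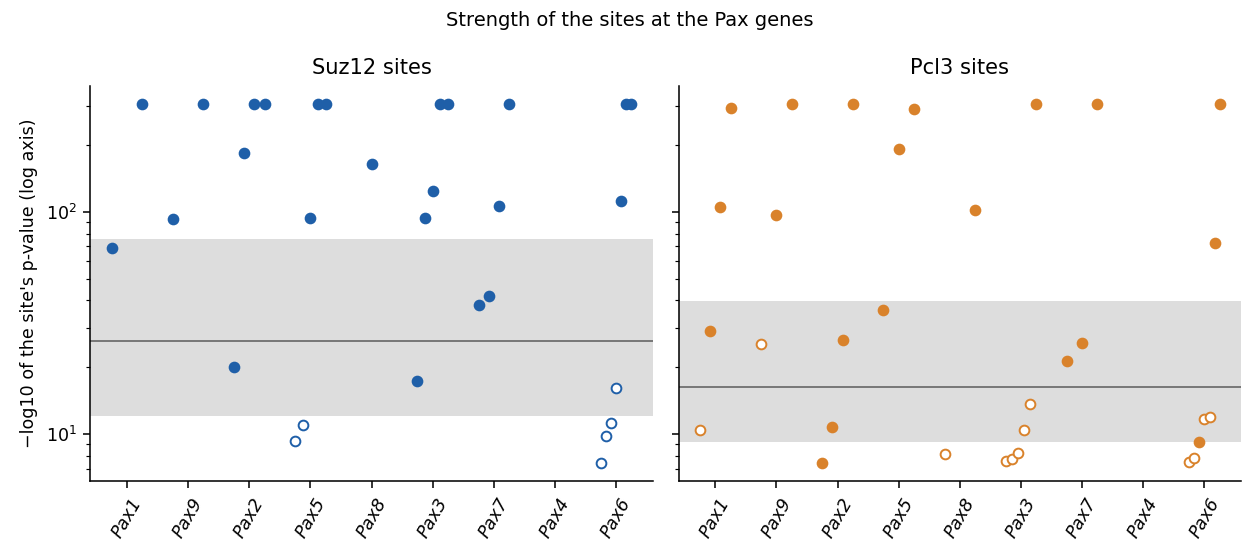
−log10 of the p-value of each Suz12 site (left) and each Pcl3 site (right) of the Pax genes on a log axis; filled Suz12 points are in the depleted list and filled Pcl3 points share bases with a Suz12 site, while open points do not. Grey bands are the quartiles and grey lines the medians of all sites of each list (26.2 for Suz12, 16.3 for Pcl3), p-values written as 0 are drawn at 307, and the 6 open Suz12 points, at Pax5 and Pax6, lie between 7.38 and 16.1.

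To ask where Suz12 binding decreased when Pcl3 was knocked down, each Suz12 site was looked up in the depleted list. Of the 30 Pax sites, 24 were depleted, or 80% (exact 95% binomial interval over sites 61.4% to 92.3%), against 64.5% of all Suz12 sites. The intervals cover counting error over sites of the same libraries only, and neighbouring sites of 1 gene are not independent. The depleted and undepleted Pax sites did not overlap in strength: the 24 depleted sites ran from 17.4 to 307 and the 6 undepleted ones from 7.38 to 16.1. Over all Suz12 sites, 17.5% of those at or below 16.1 were depleted and 91.1% of those at or above 17.4. The paper cautions that a change may be harder to detect at less significant peaks. A site outside the depleted list is thus one where no decrease was called, and it was not shown to keep its Suz12. If each Pax site had been depleted at the rate of its own decile of strength, 24.3 of the 30 would have been in the depleted list, where 24 were. The deposited p-value of a depleted site repeats its binding p-value, so the size of the loss at a Pax gene cannot be read from the list.

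Pcl3 sites shared bases with 27 of the 30 Pax Suz12 sites, or 90% (73.5% to 97.9%), against 44.3% of all Suz12 sites. At the rates of their deciles of strength, 20.9 would have been overlapped. The margin was not seen under another overlap rule. When the centers of both sites had to lie within 2 kb, 20 of the 30 had a Pcl3 site (66.7%, interval 47.2% to 82.7%), against 44.9% of all Suz12 sites and 20.1 sites at the rates of their deciles. All 24 depleted Pax sites had Pcl3, as did 3 of the 6 undepleted ones, and the 3 without it were both undepleted sites of Pax5 and 1 of Pax6. These counts follow strength in part. In the 3 strongest deciles, 75.9%, 94.8% and 99.7% of all Suz12 sites had Pcl3. Those deciles held 4, 4 and 12 of the depleted Pax sites. The other depleted Pax sites lay in deciles where 16.8% to 55.7% of all Suz12 sites had Pcl3. In the other direction, 20 of the 32 Pcl3 sites shared bases with a Suz12 site, or 62.5% (43.7% to 78.9%), against 76.9% of all Pcl3 sites. The 12 that did not, of which 5 were at Pax3 and 4 at Pax6, with 1 each at Pax1, Pax9 and Pax8, had −log10 p from 7.47 to 25.4.

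Decreased H3K27me3 was called at Pax2, Pax5 and Pax7. Of the other Pax genes with Suz12 sites, Pax8 had the nearest such site, 814281 bp away, and Pax6 the farthest. The p-value of these sites is that of the difference between scramble and Pcl3 shRNA cells. The site at Pax2 (chr19:44835501-44837400, p-value 2.398e-13) ranked 87th of the 678, and that at Pax5 (chr4:44714301-44715600, p-value 6.936e-11) ranked 193rd. That at Pax7 (chr4:139385851-139387000, p-value 1.055e-07) ranked 664th. The authors applied their cutoff of 1e-07 to windows of 400 bp and recomputed the p-values after joining. In this list 18 sites, that at Pax7 among them, had a p-value above 1e-07. All 3 sites of Pax genes lay in introns downstream of the start, at 4962 to 6861 bp in Pax2, 8718 to 10017 bp in Pax5 and 2445 to 3594 bp in Pax7. Suz12-depleted sites covered 92.1% of the site at Pax2 and 100% of those at Pax5 and Pax7, and Pcl3 sites covered 78.9%, 92.3% and 100%. Of the 4595 protein-coding genes with a Suz12-depleted site, 14.1% also had an H3K27me3-depleted site, where 3 of the 8 Pax genes had one. Among genes with a Suz12 site whose p-value was written as 0, the share was 34.2%, where 3 of 7 Pax genes had one. At Pax2, Pax5 and Pax7 the called decrease in H3K27me3 covered 1900 bp, 1300 bp and 1150 bp, against 20750 bp, 11300 bp and 20450 bp of Suz12 sites.

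The central 120 bp of the sites at Pax5 and Pax7 are given in the same way, to show the DNA where H3K27me3 decreased.
Pax5 (chr4:44714891-44715010, minus strand): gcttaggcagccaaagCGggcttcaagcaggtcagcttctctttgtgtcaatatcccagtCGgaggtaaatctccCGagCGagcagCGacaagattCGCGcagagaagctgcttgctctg
Pax7 (chr4:139386366-139386485, minus strand): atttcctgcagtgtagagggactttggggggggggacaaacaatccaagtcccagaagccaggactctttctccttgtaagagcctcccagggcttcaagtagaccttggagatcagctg
The center at Pax7 held no CpG and that at Pax5 held 7, counts that cannot be set against the 9 stretches above, which were picked for their CpG. Over their full width the 3 sites held 2, 2.09 and 3.31 CpG per 100 bp at Pax2, Pax7 and Pax5, below the median of 4.24 for all 678 H3K27me3-depleted sites.

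The Suz12 sites of the Pax genes were less dense in CpG than most. They held a median of 3.49 CpG per 100 bp (range 1.07 to 5.81, n = 30 sites), against 5.41 for all Suz12 sites (quartiles 4.12 and 7.14), and 28 of the 30 lay below that median. The exceptions were depleted sites of Pax5, with 5.67 and 5.81. Their GC content had a median of 53.6%, against 60% for all. Since a wide site averages over more sequence, the densest 500 bp of each site were also compared, and the comparison was repeated in the strongest decile of the Suz12 list, both chosen after the data were seen. The densest 500 bp held a median of 6.2 CpG per 100 bp in Pax sites and 8.6 in all. Within the strongest decile these values were 8.9 (12 sites) and 11.6 (888 sites). The hexamer GCGCGC, which reads the same on both strands, occurred in the 500 bp around the center of 2 of the 30 Pax Suz12 sites (6.67%, interval 0.818% to 22.1%) and of 37.5% of all Suz12 sites, and around the center of 3 of the 32 Pax Pcl3 sites (9.38%, interval 1.98% to 25%) and of 33.7% of all Pcl3 sites. Only these 500 bp were searched, and Pax Suz12 sites were wider, with a median of 2250 bp against 1100 bp. More of each Pax site was thus left out, and whole sites were not counted. Elsewhere, the stretches of Pax9, Pax8, Pax7 and Pax6 printed above, from their strongest Pcl3 sites, held the hexamer.

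**Figure D4:**
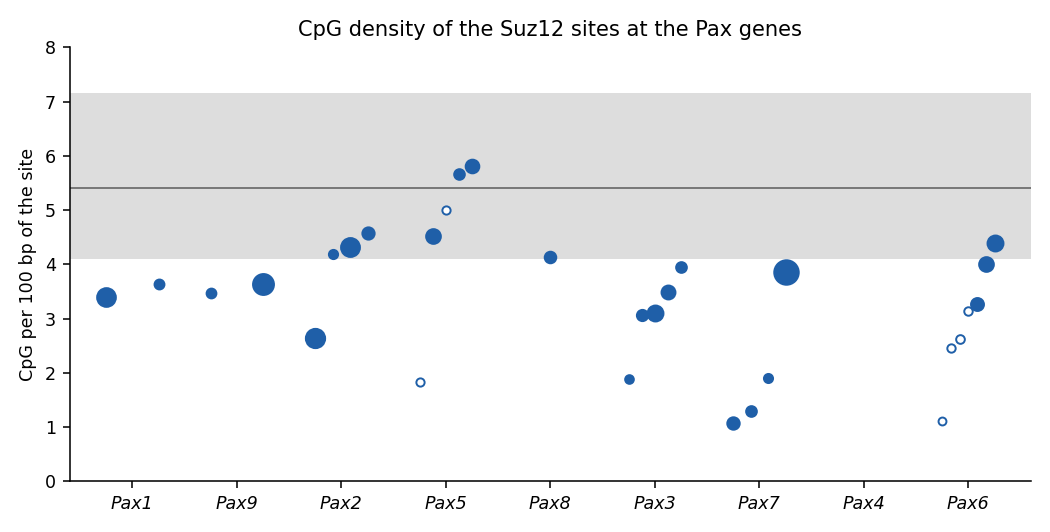
CpG per 100 bp of each Suz12 site at the Pax genes; the area of a point grows with the width of the site, filled points are in the depleted list and open points are not. The grey band and line are the quartiles (4.12 and 7.14) and the median (5.41) of all Suz12 sites, and only 2 sites of Pax5 stand above the line.

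For the genes that act with the Pax factors, 37 were listed by role. Of these, 27 had a Suz12 site, 24 a Suz12-depleted site, 23 a Pcl3 site and 6 an H3K27me3-depleted site, to be read against the 28.8%, 20.7%, 14.7% and 3.14% of protein-coding genes. The 5 kidney genes (Gdnf, Ret, Wnt4, Lhx1 and Gata3) and the 5 listed for neural tube and pancreas, Neurog2, Neurog3, Nkx2-2 and Nkx6-1 among them, all had Suz12-depleted and Pcl3 sites. Of the 12 genes listed together with Eya1 and Dach1, which encode partners of Pax factors in eye, ear and muscle, 9 had a Suz12 site and 8 a depleted one. A depleted site lay at 2 of 5 genes listed for muscle and neural crest, 2 of 4 for thyroid (Slc5a5, the sodium iodide symporter, and Nkx2-1), 1 of 4 for B cells (Ebf1) and 1 of 2 for sclerotome (Nkx3-2). The 6 genes with an H3K27me3-depleted site were Six3 (p-value 2.937e-08), Lhx1 (5 sites, smallest p-value 1.693e-14), Gata3 (p-value 5.165e-12), Ebf1 (p-value 1.756e-12), Neurog3 (p-value 1.009e-13) and Nkx6-1 (p-value 6.640e-08). Six4, Cd79a and Meox1 had Suz12 sites outside the depleted list only, with −log10 p of at most 15.9. The genes without a Suz12 site included Eya2, Eya3, Dach2, Myf5, Myog, Mitf, Blnk and Tg.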

How the data were processed

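ChIP-seq site lists of mouse ESCs were used (6 ChIP and 4 input libraries). Per the methods of the study, the authors aligned 30-nucleotide single-end reads to mm9 with Bowtie (version not given in the sources used here). They kept reads that aligned once and brought each pair of libraries to the same background. Running windows of 400 bp were tested with the Skellam distribution at 1e-07. Overlapping windows that passed were joined, the p-value was recomputed over the joined windows, and 1 p-value per site was deposited. Unique alignment leaves out repeated sequence, and equal background assumes like copy number in both populations. Whether the Pcl3 libraries were pooled is not stated. P-values written as 0 (435 Suz12 and 208 Pcl3 sites) were set to the largest −log10 value.

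Overlaps of at least 1 bp, counts, medians and exact (Clopper-Pearson) intervals were computed in Python 3.11.15 with pandas 2.3.3, scipy 1.17.1 and pysam 0.24.0, and the functions were tested on simulated data. Coordinates are 1-based. CpG density is CpG per 100 bp of mm9. The Pax genes, the list of 37 genes and the tests were chosen with earlier results of these data known. All 9 Pax genes were named, with the strongest Suz12 and Pcl3 site of each, every undepleted Suz12 site and every H3K27me3-depleted site; of the 37 genes, those with an H3K27me3-depleted site, with undepleted Suz12 sites only or with none. Some listed genes and 1 sequence are not reported here.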

Additional observations from a re-analysis of the deposited data

How the results depend on the processing

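The counts of genes and sites, the shares and medians of the Suz12 sites and the CpG density, 17 results of which 4 concern the 37 listed genes, were recomputed under other rules. Of the 115 values, 93 stayed within 1.5 times the reported count or within the exact interval of the share or median. For the median strength this interval was wide, 42 to 307, with its upper end at the value given to p-values written as 0. Medians from 93.7 (gene body alone) to 307 (centers within 2 kb of a transcript start) thus counted as staying within it. A change of direction was looked for only in the differences of median CpG density, and 0 of these changed sign. The hexamer shares, the starts inside sites, the widths and the share of Pcl3 sites with Suz12 were not recomputed. Taking only sites whose center lay within 2 kb of a transcript start left 14 Suz12, 10 Suz12-depleted and 14 Pcl3 sites. Under this rule 7 Pax genes had Suz12 and Suz12-depleted sites and 6 had Pcl3 sites. Pax7 kept no site, Pax2 kept no Pcl3 site, and Pax6 held 7 of the 14 Suz12 sites. There was 1 H3K27me3-depleted site at 1 Pax gene (Pax5). Of the listed genes, 3 had an H3K27me3-depleted site, a number also found with the gene body alone and with 2 kb on each side. With p-values of at most 1e-12 in every list, the depleted share was 96%, against 82.4% of all Suz12 sites under the same limit, 19 Pcl3 sites remained, 1 H3K27me3-depleted site lay at 1 Pax gene (Pax2) and 2 listed genes had one. Joining sites within 1 kb left 17 Suz12, 14 Suz12-depleted and 19 Pcl3 sites. By centers within 2 kb, 66.7% of the Pax Suz12 sites had a Pcl3 site, against 44.9% of all, and their deciles of strength gave 20.1 sites where 20 were found. The median CpG density was 6.2 per 100 bp in the densest 500 bp. The difference in median CpG density between Pax and all Suz12 sites, −1.92 as reported, was −3.5 in the central 500 bp and −2.4 in the densest 500 bp, and in the latter −2.7 within the strongest decile and −2.8 among sites at least as wide as the median Pax site. Of all annotated genes 22.6% had a Suz12 site, and without chromosomes X, Y and 11 2.57% of protein-coding genes had an H3K27me3-depleted site. The lists give no depth, so the precision of a single site is unknown. No paired analysis was possible because the lists hold no value per library.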

Other observations

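Beyond the windows, several Pax genes had further strong sites before the next protein-coding gene. Upstream of Pax3, a Suz12-depleted site with a p-value written as 0 lay 18391 bp from the gene (chr1:78212101-78215500), and Pax3 is the nearest protein-coding gene. Upstream of Pax2, a Suz12-depleted site (strength 289) lay 12738 bp away, with a Pcl3 site (strength 292) at 11188 bp. Upstream of Pax6, a Suz12-depleted site lay 6452 bp away (strength 111), and upstream of Pax9 one lay 9703 bp away (strength 74.7) with a Pcl3 site at 9803 bp (strength 37.5). Downstream of Pax2, a Suz12-depleted site lay 43742 bp from the gene (strength 50.4).

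The neighbourhoods differed in the distance over which no site was called. On the downstream side the next Suz12 site lay 989933 bp from Pax6, 636869 bp from Pax1, near Foxa2, and 584591 bp from Pax3, near Epha4. Upstream of Pax1 the next Suz12 site lay 53660 bp away (strength 8.52, outside the depleted list). The next Pcl3 site on that side, with a p-value written as 0, lay at Nkx2-2, 165860 bp away. No rule was set for which of these sites belong to which gene, and this was not tested.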
